A study of Mus musculus with 4 samples.

Results

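*Edn1*, the gene for the peptide endothelin-1, was examined together with 7 further genes through which ECs act on vessel tone: *Ece1*, *Ednrb*, *Nos3*, *Ace*, *Ptgs1*, *Calcrl* and *Ramp2*. These 8 genes were selected by name, with the difference between the genotypes already known, and all 8 were present among the 12693 gene symbols of the deposited table. Their differences between wild-type and *Foxq1* cKO cells are therefore given as a description and not as tests. RNA-seq was performed on cells sorted for CD31, an endothelial surface protein, from the E18 cerebral cortex of C57BL/6 mice, with 2 wild-type and 2 *Foxq1* cKO samples. The *Foxq1* cKO mice carried a floxed *Foxq1* gene and the Tie2-cre transgene, which is active in endothelial cells and is also known to be active in blood cell lineages. The controls were littermates without Cre. The sort and the cross are described in the methods of the study, while the sample labels give the tissue only as brain, with the stage, strain and genotype. The methods describe Smart-seq2, a protocol for few cells, whereas the extraction protocol of the labels describes libraries made from micrograms of total RNA. This difference was not resolved. That the values are those of sorted cells rather than of whole brain is taken from the methods, and marker sums are given below. No source says whether the 2 samples of a group came from separate animals, so p-values measure only the spread between these samples, which may be technical. In a bulk sample, fewer cells of a type and less RNA per cell cannot be told apart.

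Endothelin-1 is a strong vasoconstrictor peptide. It is made as a large precursor, cut to its active form by the protease ECE1, and binds the receptor EDNRA, which drives constriction in mural cells, or EDNRB, which in ECs releases dilators and clears the peptide. ECs balance it with dilators: nitric oxide made by NOS3, prostacyclin made from the product of the cyclooxygenase encoded by *Ptgs1*, and the response to adrenomedullin, whose receptor is formed by CALCRL with RAMP2. ACE, on the endothelial surface, makes angiotensin II and degrades bradykinin.

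The promoter sequences of *Edn1*, *Edn3* and *Ednrb*, endothelin genes with lower values in *Foxq1* cKO cells, are shown because the study names the short motif GTTTC for FOXQ1. Each line gives the 250 bases before the RefSeq start site of the gene, 5′ to 3′ on the strand of the gene, and capitals mark the matches found. In the GRCm38.p6 assembly the windows are chr13:42301226-42301475 on the plus strand for *Edn1*, chr2:174760369-174760618 on the plus strand for *Edn3*, a gene outside the 8 that encodes a related ligand, and chr14:103843702-103843951 on the minus strand for *Ednrb*.
*Edn1*: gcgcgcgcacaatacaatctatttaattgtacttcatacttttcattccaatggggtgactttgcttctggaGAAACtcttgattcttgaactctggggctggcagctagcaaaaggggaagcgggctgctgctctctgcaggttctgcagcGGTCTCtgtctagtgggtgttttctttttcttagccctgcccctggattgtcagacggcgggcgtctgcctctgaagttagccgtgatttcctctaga
*Edn3*: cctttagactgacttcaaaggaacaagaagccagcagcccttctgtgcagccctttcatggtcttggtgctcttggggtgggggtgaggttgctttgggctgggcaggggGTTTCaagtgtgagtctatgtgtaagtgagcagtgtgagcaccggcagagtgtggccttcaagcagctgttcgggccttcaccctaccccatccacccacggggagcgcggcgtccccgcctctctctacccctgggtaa
*Ednrb*: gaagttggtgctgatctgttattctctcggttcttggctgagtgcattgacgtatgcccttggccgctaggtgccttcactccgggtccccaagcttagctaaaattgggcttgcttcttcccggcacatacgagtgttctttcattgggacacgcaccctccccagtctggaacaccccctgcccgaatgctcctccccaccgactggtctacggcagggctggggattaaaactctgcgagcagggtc

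7 motifs were searched on both strands of windows of 300 bases, from 250 before to 50 after each start: GTTTC, the forkhead motifs TGTTTAC and TGTTTAT, the AP-1 motif TGACTCA, the GATA motif AGATAA, the hypoxia response core ACGTG and the shear stress element GAGACC. The *Edn1* window held GTTTC on the opposite strand with its first base 178 before the start, and GAGACC on the opposite strand 98 before the start. It also held AGATAA and ACGTG on the opposite strand at positions 9 and 22, counted from 1 at the first transcribed base, in the stretch that is not printed. The *Edn3* window held GTTTC on the strand of the gene 140 before the start, and the *Ednrb* window held none of the 7 motifs. GTTTC is short and common, as 45% of the 32851 RefSeq mouse windows of this length held it, against 16.4% for GAGACC, 19.6% for ACGTG and 11.2% for AGATAA. Of the 8 members, 6 had a window. All 4 windows of *Ece1* and the window of *Calcrl*, members whose values overlapped between the genotypes, also held GTTTC. The *Ece1* windows that begin at 137861987 and 137862030 overlap and hold the same GTTTC, 57 and 100 before their starts. The window of *Ptgs1*, whose values overlapped as well, and the windows of *Ace* held none of the 7 motifs.

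*Foxq1* itself had 353 and 297 normalized read counts in wild-type 1 and 2, and 5.44 and 32.6 in *Foxq1* cKO 1 and 2. A normalized read count here is the number of reads on a gene divided by 1 size factor per sample. The targeted gene was thus lower in both cKO samples, with residual reads in each, and its log2 fold change was -4.47 ± 1.04 (SE, n = 2 per group). In GENCODE M21, A530084C06Rik overlaps 66.1% of the *Foxq1* exon length on the opposite strand. Depth was 15827166 to 21466436 reads on listed genes per sample. The sorted cells carried high levels of endothelial markers, with 12 of 12 in the table and summed normalized read counts of 376906 to 409725 in wild-type and 327188 to 364135 in *Foxq1* cKO samples. Mural markers were high as well, at 152929 to 155089 in wild-type and 145742 to 160389 in *Foxq1* cKO samples over the 8 of 12 in the table, led by *Rgs5* with a wild-type mean of 90164. The mural markers *Acta2*, *Tagln*, *Myh11* and *Cnn1* were not analysed here. Microglial and macrophage markers summed to 10630 to 11727 in wild-type and 7907 to 8583 in *Foxq1* cKO samples, and radial glial and astrocytic markers to 34884 to 36957 and 32127 to 32506, each with 12 of 12 in the table. Neuronal markers, over the 10 of 12 in the table, summed to 6548 to 6742 in wild-type and 4817 to 6647 in *Foxq1* cKO samples. They made up 0.0280% to 0.0385% of all normalized read counts per sample, against 1.90% to 2.27% for the endothelial markers. How these shares compare with whole brain was not tested. The ranges of the endothelial, microglial and glial sums did not overlap between the genotypes, and their part in the results below was not tested. Of the 12 endothelial markers, 11 had a negative and 1 a positive log2 fold change, with a median of -0.20. Both cKO samples were below both wild-type samples for 8 and above for 1, beside 18% of all genes tested in each direction. *Flt1* and *Mfsd2a* were lower at an unadjusted limma p under 0.05, as were 3.05% of all genes tested. Of the 12 microglial and macrophage markers, 7 had a negative and 5 a positive log2 fold change. Both cKO samples were below both wild-type samples for 3 of them and above for 2, beside 18% of all genes tested in each direction.

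*Edn1* had 2585 and 1383 normalized read counts in wild-type 1 and 2, against 528 and 362 in *Foxq1* cKO 1 and 2. The groups did not overlap, although the wild-type samples themselves differed 1.87-fold. The mean was 1984 ± 850 (SD, n = 2) in wild-type against 445 ± 117 (SD, n = 2) in *Foxq1* cKO cells, a level 22.4% of wild-type. Between 356 and 3068 reads per sample lay behind these values. In the limma fit across 12472 genes, on log2 of the value plus 1, the log2 fold change was -2.11 ± 0.42 (SE), with an unadjusted p of 0.00218 that ranked 23 among all genes and a Benjamini-Hochberg adjusted p of 0.857.

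*Ece1*, the gene of the protease that activates the peptide, had 10853 and 13927 normalized read counts in wild-type against 14454 and 13005 in *Foxq1* cKO samples. The cKO 2 value lay between the wild-type values, and the log2 fold change was 0.16 ± 0.16 (SE). Omission of wild-type 1 turned its sign, to -0.02.

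*Ednrb*, the receptor gene among the members, had 5215 and 5013 normalized read counts in wild-type against 2662 and 2616 in *Foxq1* cKO samples. Here the samples of each genotype lay close together, within 1.04-fold in wild-type and 1.02-fold in *Foxq1* cKO, and the genotypes were well apart. The mean was 5114 ± 143 (SD, n = 2) in wild-type against 2639 ± 32.0 (SD, n = 2) in cKO, or 51.6% of wild-type. The log2 fold change was -0.95 ± 0.17 (SE), with an unadjusted limma p of 0.00119, rank 10 among all genes, and an adjusted p of 0.857. *Ednrb* is also known to be expressed by glial cells, whose marker sums were lower in cKO samples as given above. Of the 12 glial markers, 7 had a negative and 5 a positive log2 fold change, with a median of -0.31. Both cKO samples were below both wild-type samples for 6 and above for 2, beside 18% of all genes tested in each direction. *Gfap* alone passed an unadjusted p of 0.05 (3073 and 2420 normalized read counts in wild-type against 1081 and 1329 in cKO), while *Nes* had 5293 and 5639 in wild-type against 8608 and 6317 in cKO. The part of these cells in the *Ednrb* values was not tested.

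The other genes of the endothelin system in the table pointed the same way as *Edn1*. *Edn3*, which encodes the ligand endothelin-3, had 756 and 342 normalized read counts in wild-type against 105 and 74.3 in *Foxq1* cKO samples. Its cKO samples were both below its wild-type samples, and its log2 fold change was -2.52 ± 0.66 (SE, unadjusted p = 0.00862, adjusted p = 0.857, limma), with a DESeq2 adjusted p of 0.0244 and an unadjusted p of 0.0559 without moderation. *Ednra*, the constrictor receptor of mural cells, had 6192 and 3939 normalized read counts in wild-type against 3707 and 3329 in cKO samples. Its groups did not overlap, but wild-type 2 was closer to the cKO samples than to wild-type 1, and the log2 fold change of -0.49 ± 0.25 (SE) did not pass 0.05 in limma (unadjusted p = 0.0960). Without wild-type 2 it was -0.82 and past that level, and without wild-type 1 it was -0.17. *Ednra* also passed that level, narrowly, with the replicate number as a block (unadjusted p = 0.0484, limma) and in DESeq2 (unadjusted p = 0.0469). Of the 5 endothelin genes in the table, 4 had both cKO samples below both wild-type samples, as did 18% of all genes tested, and 2 of these 4, *Edn1* and *Ednrb*, were chosen with this difference known. The related genes *Edn2*, *Ece2* and *Mme* were not analysed here.

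**Figure D1:**
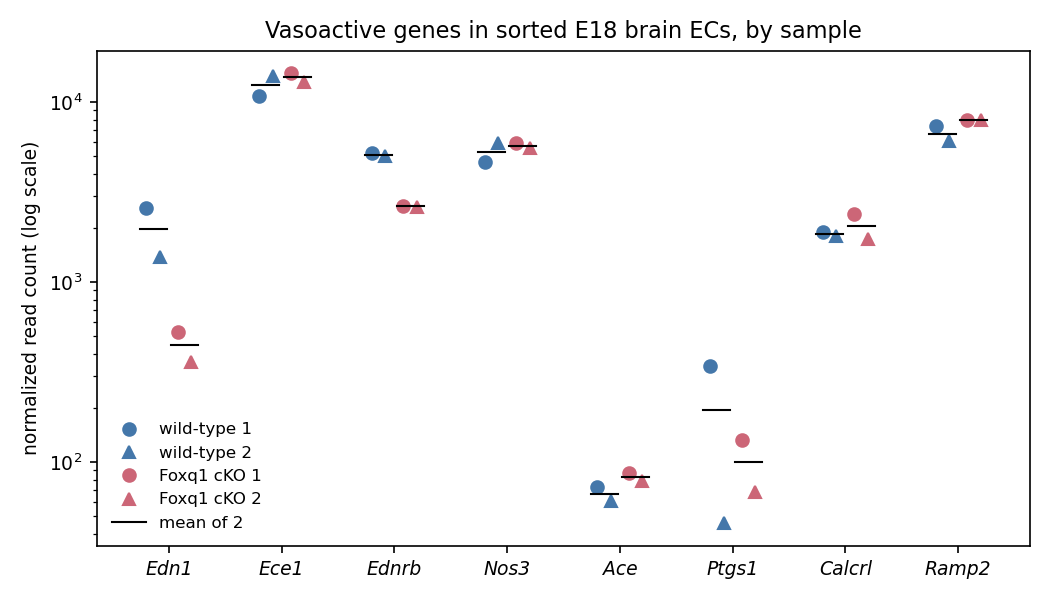
Normalized read counts (y axis, log scale) of the 8 genes in each of the 4 samples, with circles for replicate 1, triangles for replicate 2 and a line at each mean of 2 samples. *Edn1* and *Ednrb* have both *Foxq1* cKO samples below both wild-type samples, *Ace* and *Ramp2* have both slightly above, and the values of *Ece1*, *Nos3*, *Ptgs1* and *Calcrl* overlap.

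Of the members on the dilator side, *Nos3*, *Ptgs1*, *Calcrl* and *Ramp2*, none had both cKO samples below both wild-type samples. Only 18% of all genes tested had, so nothing about dilator genes is read from this. *Nos3*, the endothelial nitric oxide synthase, had 4675 and 5915 normalized read counts in wild-type against 5903 and 5542 in *Foxq1* cKO samples. Both cKO values lay between the wild-type values, and the log2 fold change was 0.12 ± 0.18 (SE). Antisense transcript *Gm15587* and, in part, *Atg9b* overlap 25.2% and 7.12% of the *Nos3* exon length on the opposite strand in GENCODE M21, and whether the counting used strand is not stated. *Gm15587* was counted at 20.2 to 60.8 normalized read counts, far below *Nos3*.

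*Ace* had 72.5 and 60.8 normalized read counts in wild-type against 87.1 and 78.3 in *Foxq1* cKO samples. Both cKO samples were above both wild-type samples, but on 61 to 86 reads per sample the log2 fold change of 0.31 ± 0.78 (SE) was smaller than its error, and the raw reads of the groups overlapped before scaling. *Ptgs1*, which encodes cyclooxygenase-1, had 343 and 45.9 normalized read counts in wild-type against 133 and 68.2 in cKO samples. Both cKO values lay between the wild-type values, which differed 7.48-fold, and the sign of the log2 fold change (-0.40 ± 1.11, SE) rested on single samples: it was 1.04 without wild-type 1, -1.84 without wild-type 2 and 0.08 without *Foxq1* cKO 2.

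*Calcrl*, the receptor chain for adrenomedullin and calcitonin gene-related peptide, had 1889 and 1805 normalized read counts in wild-type against 2386 and 1730 in *Foxq1* cKO samples. The cKO samples lay on either side of the wild-type samples, with a log2 fold change of 0.14 ± 0.25 (SE), and omission of *Foxq1* cKO 1 turned the sign, to -0.09. *Ramp2*, the partner that directs CALCRL to adrenomedullin, had 7330 and 6042 normalized read counts in wild-type against 7949 and 8000 in cKO samples. Both cKO samples were above both wild-type samples, by a log2 fold change of 0.26 ± 0.16 (SE, unadjusted p = 0.146, limma). In GENCODE M21, 33.4% of the *Ramp2* exon length is shared with *Vps25* on the same strand, and *Vps25* was counted at 3.99 to 110 normalized read counts.

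Among the 8 members, 2 were lower and 0 higher in *Foxq1* cKO cells at an unadjusted limma p under 0.05, where 3.05% of all genes tested were lower and 2.17% higher. No member passed Benjamini-Hochberg adjustment in limma, nor did any other gene (0% of 12472, smallest adjusted p 0.857, with 651 genes at an unadjusted p under 0.05). The groups did not overlap for 2 members that were lower, *Edn1* and *Ednrb*, and for 2 that were higher, *Ace* and *Ramp2*. Across all genes tested, 18% had both cKO samples below both wild-type samples and 18% had both above. With DESeq2 on the reads recovered from the deposited values, *Edn1* and *Ednrb* were lower at adjusted p-values of 0.000187 and 0.00435, and 0.221% of genes were lower at an adjusted p under 0.05. DESeq2 called 59 genes in all at this level, whereas edgeR called 0, with a smallest adjusted p of 0.954 and unadjusted p-values of 0.00193 for *Edn1* and 0.00121 for *Ednrb*. Since the members were chosen on this contrast, nothing is read from these counts. The median log2 fold change of the 8 members was 0.13, beside 0.01 for all genes tested. An exact permutation test of 2 against 2 samples cannot give a two-sided p below 0.333.

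**Figure D2:**
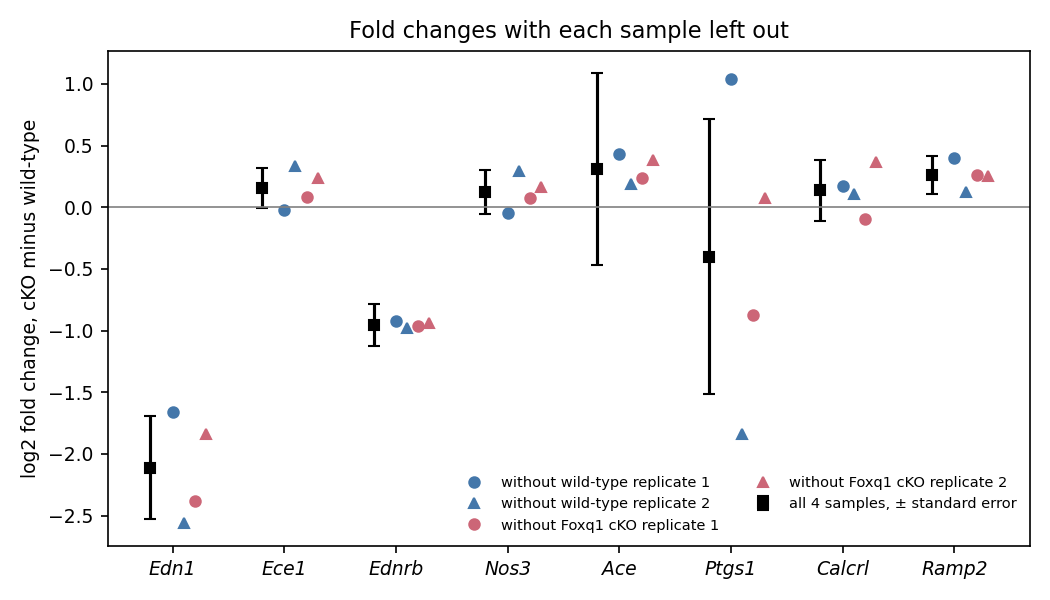
Log2 fold change (y axis, *Foxq1* cKO minus wild-type) of the 8 genes from all 4 samples (black squares, bars ± SE of the limma fit) and with each sample left out in turn (coloured points). *Edn1* stays between -2.56 and -1.66 and *Ednrb* between -0.98 and -0.93, whereas *Ptgs1* ranges from -1.84 to 1.04.

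The values of *Edn1* and *Ednrb* with samples left out differed in their spread. Omission of a single sample moved the log2 fold change of *Edn1* between -2.56, without wild-type 2, and -1.66, without wild-type 1. *Ednrb* moved between -0.98 and -0.93. Each of these fits leaves a group of 1 sample, which is assumed to vary like the samples of the other group, so they show how the value moves and are no test of its stability. Without moderation across genes, where each gene has its own error on 2 degrees of freedom, the unadjusted p of *Edn1* was 0.0570.

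To compare levels between genes, normalized read counts were divided by the exon length in kilobases. In wild-type cells the order was *Ece1* at 2338 ± 410 normalized reads per kb (SD, n = 2), *Ramp2* at 2026 ± 276, *Nos3* at 1281 ± 212, *Ednrb* at 1199 ± 33.5, *Edn1* at 928 ± 397, *Calcrl* at 378 ± 12.1, *Ptgs1* at 50.1 ± 54.1 and *Ace* at 12.6 ± 1.56. Of these neighbours, *Ece1* and *Ramp2*, *Nos3* and *Ednrb*, *Ednrb* and *Edn1*, and *Ptgs1* and *Ace* overlapped in their samples. *Ece1* was thus higher per length than the gene of the peptide it activates in every sample, and *Ace* was near the floor of the table, at percentile 8.08 of all genes in wild-type cells. The exon length of *Ramp2* includes the 33.4% shared with *Vps25*. How reads there were counted is not stated, so the place of *Ramp2* against *Ece1* is uncertain.

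In *Foxq1* cKO cells the level of *Edn1* was 208 ± 54.8 normalized reads per kb (SD, n = 2) and that of *Ednrb* was 619 ± 7.51. *Edn1* passed from rank 5 to rank 6, below *Calcrl* at 422 ± 95.0, and *Ednrb* stayed at rank 4, now apart from *Nos3* at 1385 ± 61.7. The remaining genes kept their order.

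**Figure D3:**
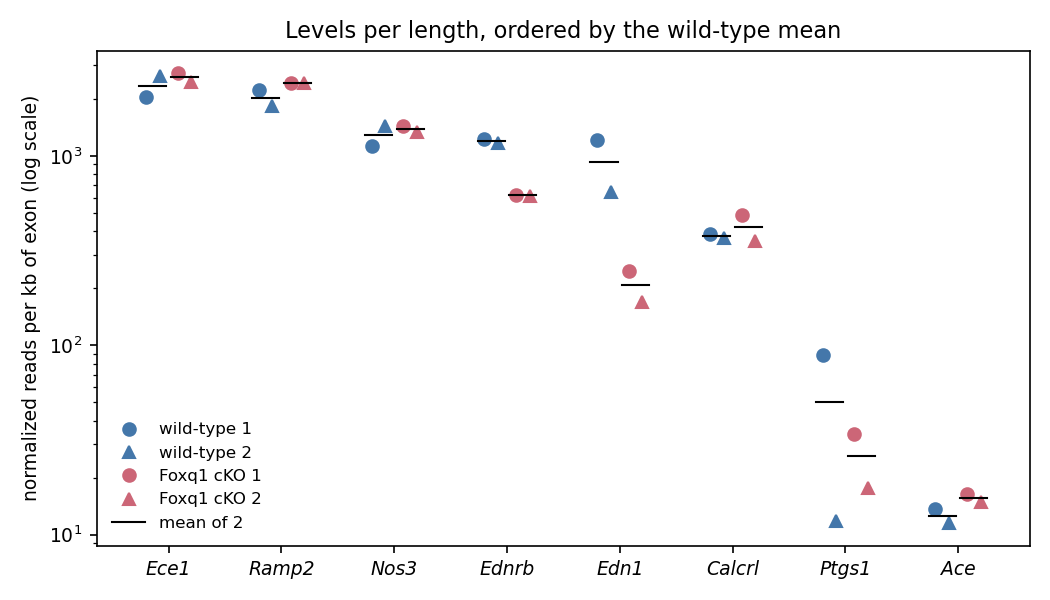
Normalized reads per kb of exon (y axis, log scale) for the 8 genes, ordered by the wild-type mean, in each of the 4 samples, with a line at each mean of 2 samples. *Edn1* lies at 928 in wild-type, above *Calcrl* at 378, and at 208 in *Foxq1* cKO cells, below *Calcrl* at 422.

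The wider vasoactive pathways were followed in 6 lists of 101 genes grouped by known function, of which 59 were in the table and 42 were not analysed here. At an unadjusted limma p under 0.05, 10 of the 59 were lower and 0 were higher in *Foxq1* cKO cells, and without the members 8 of 51 were lower. The lists, like the members, were chosen with earlier results of these data known. Leaving out the members does not remove that choice, so the counts over the lists are a description and not a test. The shares over all genes tested, against which these and the following counts stand, were 3.05% lower and 2.17% higher, so a count of 0 higher is near what the table as a whole gave. None of the 59 passed adjustment in limma, whereas 4 were lower at an adjusted p under 0.05 in DESeq2: *Edn1*, *Edn3*, *Ednrb* and *Slco2a1*, of which *Edn1* and *Ednrb* are members. The groups did not overlap for 22 that were lower and 9 that were higher, beside 18% of all genes tested in each direction. The median log2 fold change of the 59 genes was -0.23, beside 0.01 for all genes tested.

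In the nitric oxide and cGMP list, 2 of 18 genes in the table were lower and 0 higher at this level, with a median log2 fold change of -0.20. This median was -0.13 without wild-type 1, -0.10 without wild-type 2 and -0.06 without *Foxq1* cKO 2. Both genes that were lower are known to act on NOS3 rather than to make nitric oxide. *Nostrin*, which traffics NOS3 away from the membrane, had 3891 and 3358 normalized read counts in wild-type against 1957 and 2300 in *Foxq1* cKO samples (log2 fold change -0.77 ± 0.20, SE, unadjusted p = 0.00906, limma). *Cav1*, the caveolar coat protein that binds and inhibits NOS3, had 8000 and 5365 in wild-type against 4077 and 3668 in cKO samples (-0.76 ± 0.23, unadjusted p = 0.0153, limma). Both genes had their cKO samples below their wild-type samples. The unadjusted level was lost for *Nostrin* without *Foxq1* cKO 1 (-0.65) and for *Cav1* without wild-type 1 (-0.47) or *Foxq1* cKO 2 (-0.68). It was also lost for both without a trend in limma (unadjusted p = 0.0622 and unadjusted p = 0.0969), and for *Cav1* without moderation (unadjusted p = 0.125). *Slc7a1*, the arginine transporter, was the highest of the list per length together with *Cav1*. *Slc7a1* had 21383 and 26680 normalized read counts in wild-type against 29213 and 29335 in cKO samples (0.29 ± 0.13, unadjusted p = 0.0709, limma). Both cKO samples of *Slc7a1* were above both wild-type samples. The log2 fold change was 0.13 without wild-type 1 and 0.45 without wild-type 2.

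In the angiotensin and kinin list, 2 of 8 genes in the table were lower and 0 higher, with a median of -0.32. *Prcp*, a carboxypeptidase that cuts angiotensin II and activates prekallikrein, had 11209 and 10361 normalized read counts in wild-type against 8784 and 7292 in *Foxq1* cKO samples (log2 fold change -0.43 ± 0.15, SE, unadjusted p = 0.0292, limma). *Cpe*, carboxypeptidase E, which trims many peptide hormones, had 1861 and 1705 in wild-type against 1113 and 1076 in cKO samples (-0.70 ± 0.24, unadjusted p = 0.0260, limma). The groups did not overlap for either gene. The unadjusted level was lost for *Prcp* without wild-type 1 (-0.37) or *Foxq1* cKO 2 (-0.29), and for *Cpe* without any sample but wild-type 2 (-0.73 to -0.64). Without a trend both lost it as well (unadjusted p = 0.217 for *Prcp* and unadjusted p = 0.0662 for *Cpe*, limma), as did *Prcp* under quantile normalization (unadjusted p = 0.0846) and without moderation (unadjusted p = 0.0986). *Atp6ap2*, the prorenin receptor, had overlapping values and a log2 fold change of 0.08 ± 0.25.

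In the prostanoid list, 2 of 10 genes in the table were lower and 0 higher, and both encode transporters of prostaglandins rather than enzymes that make them. The median of the list, -0.13, rested on single samples: it was -0.01 without wild-type 1, -0.63 without wild-type 2, 0.28 without *Foxq1* cKO 1 and 0.11 without *Foxq1* cKO 2. *Slco2a1*, which takes up prostaglandins for their removal, had 7706 and 7533 normalized read counts in wild-type against 3889 and 4292 in *Foxq1* cKO samples. The samples of each genotype lay close together and apart from the other genotype, with a log2 fold change of -0.90 ± 0.15 (SE, unadjusted p = 0.000973, adjusted p = 0.857, limma) and a DESeq2 adjusted p of 0.00301. *Abcc4*, an exporter of prostaglandins and cyclic nucleotides, had 3249 and 3427 in wild-type against 1265 and 2183 in cKO samples (-1.01 ± 0.30, unadjusted p = 0.0147, limma). Omission of *Foxq1* cKO 1 left *Abcc4* short of the unadjusted level, at -0.61, as did limma without a trend (unadjusted p = 0.0668) or without moderation (unadjusted p = 0.126). The synthase gene *Ptges*, for prostaglandin E2, had 2519 and 3073 in wild-type against 3218 and 4257 in cKO samples (0.41 ± 0.22, unadjusted p = 0.115, limma). Both cKO samples of *Ptges* were above both wild-type samples. *Tbxa2r*, the thromboxane receptor, had overlapping values and a log2 fold change of -0.01 ± 0.23 that was 0.05 under quantile normalization.

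In the calcitonin receptor family list, 0 of 6 genes in the table passed the unadjusted level, with a median of -0.27 and members *Calcrl* and *Ramp2* as the only genes with a positive log2 fold change. That median was -0.13 without wild-type 1, -0.12 without wild-type 2 and 0.02 without *Foxq1* cKO 2. The ligand gene *Adm*, for adrenomedullin, had 5551 and 5109 normalized read counts in wild-type against 4554 and 3877 in *Foxq1* cKO samples. Its groups did not overlap, and its log2 fold change was -0.34 ± 0.17 (SE, unadjusted p = 0.0909, limma). *Crcp*, a component of the receptor complex for calcitonin gene-related peptide, had overlapping values (-0.49 ± 0.43), and its log2 fold change was -0.02 without wild-type 1 and -0.95 without wild-type 2.

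Among other endothelial vasoactive genes, 1 of 12 in the table was lower and 0 higher, with a median of -0.22 that was -0.40 without wild-type 1. Both cKO samples were below both wild-type samples for 7 of the 12 and above for 3, beside 18% of all genes tested in each direction. *Adora2b*, the low-affinity adenosine receptor, had 909 and 1004 normalized read counts in wild-type against 334 and 474 in *Foxq1* cKO samples (log2 fold change -1.26 ± 0.37, SE, unadjusted p = 0.0146, limma). Without *Foxq1* cKO 1, *Adora2b* was at -1.01 and no longer past the unadjusted level. *Gja5*, the gap junction protein connexin 40 of arterial ECs, had 340 and 292 in wild-type against 9.80 and 136 in cKO samples. Both cKO samples of *Gja5* were low but differed 13.9-fold, and its unadjusted p was 0.0524 with a log2 fold change of -3.04 ± 1.26, which ranged from -4.87 without *Foxq1* cKO 2 to -1.20 without *Foxq1* cKO 1. *Gja5* passed 0.05 with the replicate block (unadjusted p = 0.0339, limma) and in DESeq2 (unadjusted p = 0.0439). *Aplnr*, the apelin receptor, and *Gja4*, connexin 37, were the highest of this list per length and had log2 fold changes of -0.12 ± 0.15 each.

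**Figure D4:**
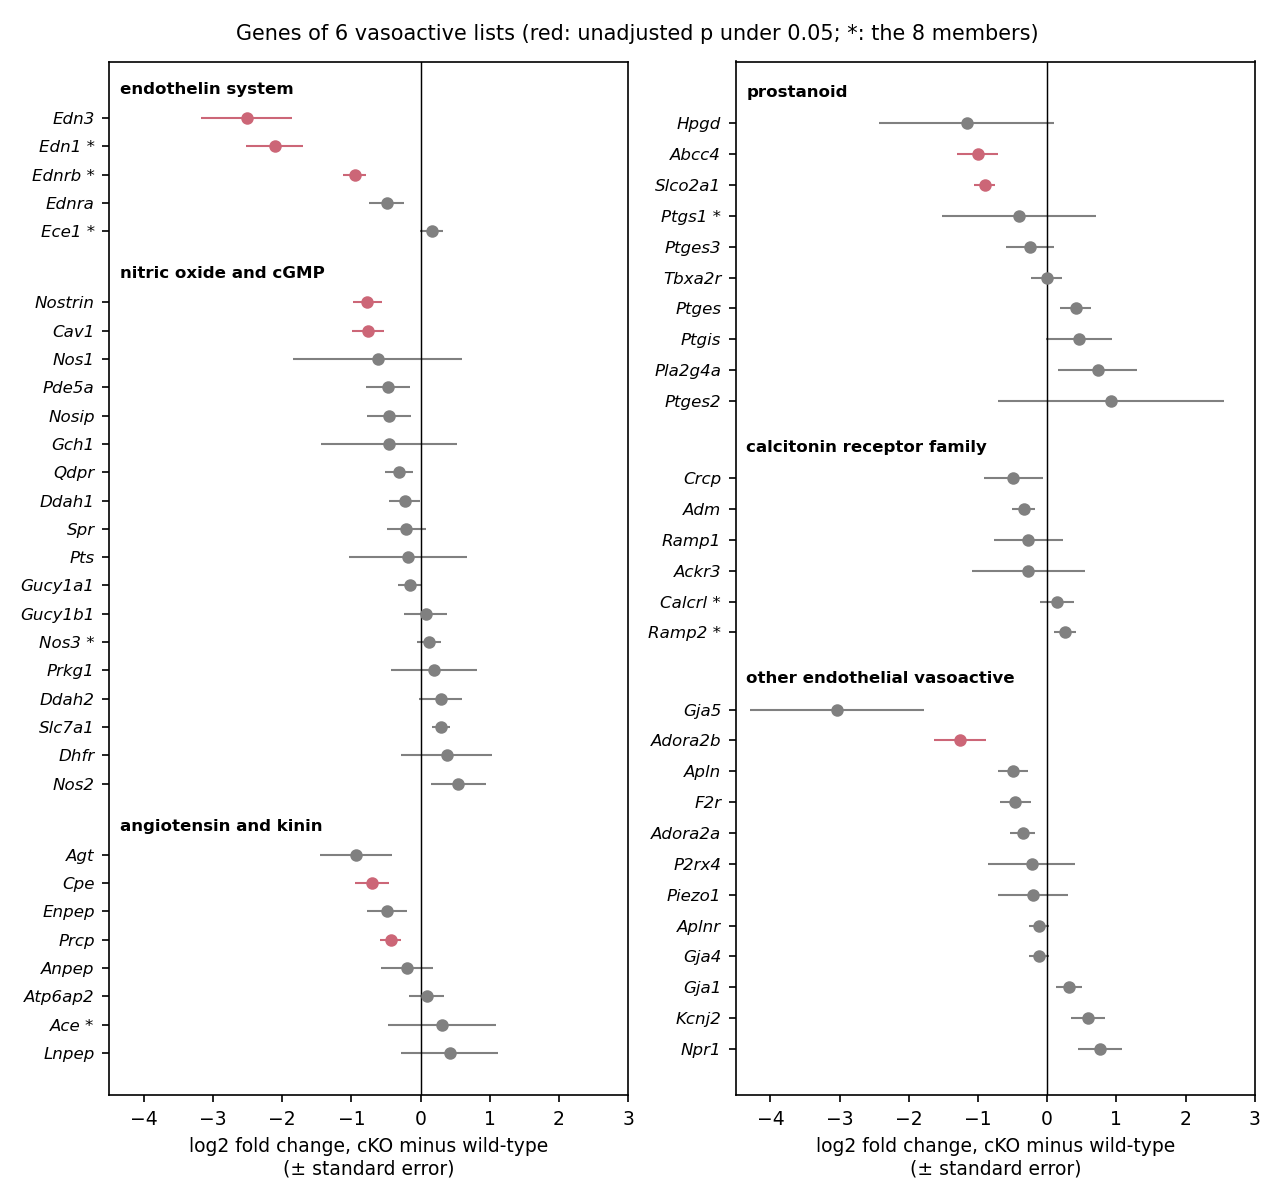
Log2 fold change (x axis, *Foxq1* cKO minus wild-type, bars ± SE of the limma fit) of the 59 genes of 6 vasoactive lists in the table, with an asterisk on the 8 members and red for an unadjusted p under 0.05. The 10 red genes all lie to the left of 0, led by *Edn3* at -2.52 and *Edn1* at -2.11.

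The genes whose pattern over the 4 samples was most like that of *Edn1* were taken as the 5 with the smallest root mean square distance in log2 of the value plus 1, centred on each gene's mean, among 11402 genes with a mean of at least 50. They were *Gm50008* (distance 0.0924), *Syt7* (0.189), *Edn3* (0.221), *Depp1* (0.228) and *Sema3f* (0.242). *Edn3* was thus the third nearest, with the same order of the 4 samples as *Edn1*. *Depp1*, a gene known as a target of FOXO factors and progesterone, had 1523 and 1082 normalized read counts in wild-type against 339 and 318 in *Foxq1* cKO samples. *Syt7*, a calcium sensor of vesicle fusion, had 303 and 116 in wild-type against 57.7 and 39.7 in cKO samples. *Sema3f*, a secreted guidance protein, had 236 and 90.7 in wild-type against 40.3 and 36.6 in cKO samples. Each of these genes, like *Edn1*, was highest in wild-type 1 and lowest in *Foxq1* cKO 2, and a likeness over 4 samples includes whatever else distinguished those samples.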

How the data were processed

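RNA-seq of CD31-sorted E18 cortical cells was available for 2 samples of wild-type and 2 of *Foxq1* cKO mice, grouped by their labels. The authors deposited 1 table of a normalized signal per gene. The submitters' processing notes name Bowtie2 2.2.3, TopHat2 2.0.12, HTSeq 0.6.0 and mm9 without roles. The scaling method and strand setting are not given in the sources used here. In each sample, all values were integer multiples of a single step (100%, within 0.001), so reads were recovered as value over step. The deposited signal is thus reads divided by a size factor. The table repeats genes over 1207361 identical lines, which were reduced to 12693 symbols, of which 8 had 2 identifiers. Every listed gene had at least 1 read in each sample and 21 in total, so genes without reads in a sample could not be measured.

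limma 3.58.1 (trend) in R 4.3.3 was run on log2 of the value plus 1 for the 12472 genes with a mean of at least 10, with Benjamini-Hochberg adjustment, since the values are not raw counts. DESeq2 1.42.0 and edgeR 4.0.16 on recovered reads were alternatives and called 59 and 0 genes at an adjusted p under 0.05. The other alternatives were pseudocounts of 0.1 and 5, no filter and a minimum mean of 50, quantile and TMM scaling, no trend, no moderation, the replicate number as a block, and each sample left out. The script was tested on simulated data. Exon lengths and overlaps came from GENCODE M21 (GRCm38), with no coordinates carried between builds, and promoters from RefSeq (GRCm38.p6). Tables and plots were made in Python 3.11.15 (pandas 2.3.3, matplotlib 3.10.9).

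The members and the 6 gene lists were chosen with earlier results of these data known. Besides the members and *Foxq1*, the genes named were list genes with an unadjusted p under 0.05, list genes without overlap and with a log2 fold change of at least 1 in size, the 2 highest non-members per length in each list, and the 5 genes nearest to *Edn1*. Marker genes named as examples of their lists were chosen after their values were seen. Libraries carried no molecular identifiers, so errors include amplification.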

Additional observations from a re-analysis of the deposited data

How the results depend on the processing

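Over the 11 alternatives other than leaving out a sample, 592 to 824 genes passed an unadjusted p under 0.05, against 651 as reported. Leaving out a sample gave 276 (without *Foxq1* cKO 1) to 1569 (without wild-type 2). No gene passed adjustment under any alternative except DESeq2, with 59, so a call of *Edn1* or *Ednrb* depends on the tool. The log2 fold change of *Edn1* stayed between -2.16 and -2.10, and its unadjusted p was above 0.05 only without moderation (-2.11, unadjusted p = 0.0570, limma without eBayes). It ranged from -2.56 to -1.66 with a sample left out. The replicate number as a block left it at -2.11 (unadjusted p = 0.000539, limma), with 693 genes unadjusted and 0 adjusted. The replicate numbers were not taken to pair the samples, since no source states a pairing. Same-numbered samples had a correlation of deviations of 0.0325. *Ramp2* passed an unadjusted p of 0.05 under quantile normalization alone (0.36, unadjusted p = 0.0491, limma). *Tbxa2r* turned from -0.01 to 0.0497 under quantile normalization. With a sample left out, signs turned for *Ece1* (-0.0227 to 0.34), *Nos3* (-0.0484 to 0.29), *Ptgs1* (-1.84 to 1.04), *Calcrl* (-0.0939 to 0.37), *Atp6ap2* (-0.16 to 0.33), *Tbxa2r* (-0.16 to 0.15) and *Aplnr* (-0.31 to 0.0608), and for the medians of the prostanoid (-0.63 to 0.28) and calcitonin receptor (-0.33 to 0.0152) lists. Medians kept their sign for the endothelin (-0.98 to -0.93), nitric oxide (-0.22 to -0.06), angiotensin and kinin (-0.40 to -0.23) and other vasoactive (-0.40 to -0.14) lists. Without a trend, *Nostrin*, *Cav1*, *Prcp*, *Cpe* and *Abcc4* no longer passed the unadjusted level. The causes were not tested. Where a sample was left out, the lone sample of its group was assumed to vary like the other group. With 2 samples a group, the differences of *Ramp2* (0.26 ± 0.16, SE) and *Ace* (0.31 ± 0.78, SE) could not be told from sample spread in the main limma fit. The median SE of all genes was 0.50 on the log2 scale.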
